A study of Mus musculus with 240 samples.

Results

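The neuropeptide genes described here are 10 of the 34623 genes in the count table, matched by symbol to a set list of names: Penk, Pdyn, Sst, Npy, Vip, Cck, Tac1, Crh, Cort and Pcsk1n. Each symbol was found in the table, and all 10 genes passed the filter on low counts in the bulk libraries, which kept 16349 genes. RNA was sequenced from tdTomato-positive cells cut by laser capture microdissection from sectioned mouse brain and labelled as oligodendrocyte precursor cells (OPCs), the dividing glial cells that give rise to myelinating oligodendrocytes. Bulk libraries came from 37 mice of 2 genotypes, Trp53-/- Nf1-/- (CKO) and wild-type (WT), and both genotypes were timed in days from the start of tamoxifen treatment (dpi). There were 5 WT and 7 CKO mice at 12 dpi, 5 WT and 7 CKO mice at 90 dpi, and 6 WT mice and 7 CKO mice at 150 dpi. The CKO material at 150 dpi is labelled as brain tumour cells and is called tumour here. A further 112 10-cell libraries and 80 pool-and-split libraries came from CKO mice alone at 12 and 90 dpi. The Cre driver and the ages of the mice are not given in the sources used here, and each value of a bulk sample is 1 mouse.

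All 10 are annotated as protein-coding genes, with these positions in GRCm38. Penk (ENSMUSG00000045573) lies at chr4:4133531-4138819 and Pdyn (ENSMUSG00000027400) at chr2:129686565-129699844. Tac1 (ENSMUSG00000061762) lies at chr6:7554879-7565834 and Npy (ENSMUSG00000029819), on the same chromosome, at chr6:49822710-49829507. Sst (ENSMUSG00000004366) lies at chr16:23889581-23890844 and Cort (ENSMUSG00000028971), which encodes a related peptide, at chr4:149125034-149126763. Vip (ENSMUSG00000019772) lies at chr10:5639218-5647617, Cck (ENSMUSG00000032532) at chr9:121489824-121495694 and Crh (ENSMUSG00000049796) at chr3:19693401-19695396. Pcsk1n (ENSMUSG00000039278) is the single X-linked member, at chrX:7919822-7924410.

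Neuropeptides are cut from longer precursors by prohormone convertases at paired basic residues, packed into dense-core vesicles and released to act on G protein-coupled receptors. In the forebrain they are best known as products of neurons, with Sst, Npy, Vip, Cck and Cort marking classes of GABAergic interneurons and Penk, Pdyn and Tac1 marking striatal projection neurons. Penk transcripts have also been described in glial cells, so the gene is not a strict neuron marker.

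Penk encodes proenkephalin, which holds several copies of the enkephalin opioid peptides, and Pdyn encodes prodynorphin, the source of dynorphins. The repeats are shown because Penk is the gene with the largest change among the 10 and because they set these opioid precursors apart from the other 8. In GENCODE M21 (GRCm38), the codons of Met-enkephalin, with any base at the last position of all but the Met codon, were searched in frame on the coding strand of the longest coding sequence of 21877 genes. They occurred in 3 genes, and Penk was the single gene with more than 1 match, with 6 in its 807 coding bases. The same pattern ending in a Leu codon that starts with CT, that of Leu-enkephalin, occurred in 10 genes, with 2 matches in Pdyn and 1 in Penk. In the lines that follow, read on the minus strand, capitals mark the matched letters and the flanking lower-case bases are the neighbouring codons.
Penk chr4:4134328-4134354: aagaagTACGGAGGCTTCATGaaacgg
Penk chr4:4134307-4134333: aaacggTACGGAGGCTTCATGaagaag
Penk chr4:4133842-4133868: aaaagaTACGGGGGCTTTATGcggttc
Penk chr4:4133935-4133961: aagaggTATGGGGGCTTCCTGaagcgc
Pdyn chr2:129688124-129688150: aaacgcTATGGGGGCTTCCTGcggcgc
Pdyn chr2:129688067-129688093: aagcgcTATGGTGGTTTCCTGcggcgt
The last Penk line is its Leu-enkephalin match, and none of the other 8 members held a match to either pattern.

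Several members are textbook targets of the cAMP response element binding protein (CREB), so the promoters are shown with the core of that element. RefSeq promoter windows (GRCm38.p6, 250 bases before to 50 after the start) were matched for 8 members in 9 windows, and Penk and Crh had no entry. The letters TGACG, on either strand, occurred in 5 of the 9 windows, those of Sst, Vip, Cck, Cort and Tac1, against 20.8% of all 32851 windows. The full palindrome TGACGTCA, which contains TGACG on both strands, occurred in the Sst window alone among members, against 1.79% of all windows. The letters TGANTCA occurred in the Pcsk1n window alone among members, against 7.81% of all windows. In these lines, each on the strand of its gene, capitals mark the TGACG letters or their reverse complement.
Sst chr16:23890876-23890904: cgcctccttggcTGACGtcagagagagag
Vip chr10:5639127-5639155: ggatcactactgTGACGtctttcggggag
Cck chr9:121495725-121495753: cctgctggactgCGTCAgcactgggtaaa
Cort chr4:149126765-149126793: ctccggcttgtgCGTCAccgcgtgagtgt
Tac1 chr6:7555006-7555034: gctctacaggctCGTCAcgcctgagataa
These matches are letters in a window and were not tested as bound sites. Of the 5 members with the letters, Tac1 and Vip fell in tumours against WT, where 21.9% of all genes fell, and Sst, Cck and Cort were not called. Penk, which had no window, and Pcsk1n, whose window lacked TGACG, fell as well. A link between the letters and the falls was not tested.

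Before the results, 2 animals at 90 dpi need to be set apart. The shallowest animal, WT_21167, held 93644 counts against 2316668 or more in each of the other animals, so that 1 count in it stood for 9.48 CPM (counts per 1e+06 counts). The second, CKO_20647, was sequenced as 2 libraries, called library 1 (label ending in ACTAA) and library 2 (ending in GAGCT), that did not resemble each other. Their log2 CPM correlated at r = 0.702 over 10491 genes, while the other 10 pairs of libraries from 1 animal correlated at 0.927 to 0.986. Library 2 held Penk at 0.141 CPM, Npy at 743 CPM and Cck at 1560 CPM. Library 1 held Penk at 356 CPM, Npy at 6.42 CPM and Cck at 14.0 CPM. The 8 libraries of the other CKO animals at 90 dpi lay between 243 and 463 CPM for Penk, 6.89 and 24.0 CPM for Npy, and 19.2 and 106 CPM for Cck, so library 2 was outside that range for all 3 genes. Markers of excitatory neurons moved with it: Slc17a7, the vesicular glutamate transporter of cortical neurons, was at 1180 CPM in library 2 and at 35.1 CPM in library 1. Neurod6, another marker of these neurons, was at 403 and 0 CPM. The 10 excitatory markers summed to 7590 CPM in library 2, against at most 1170 CPM in the 8 libraries of the other animals. Other lists were also outside the range of those 8 libraries. The pan-neuronal markers summed to 20100 CPM in library 2 (6790 to 8140 in the 8) and the astrocyte markers to 12000 CPM (2430 to 3500). The microglia markers summed to 27.8 CPM (112 to 225), and the oligodendrocyte markers were below the range of the 8 (1430 to 4300). The OPC marker Pdgfra was at 198 CPM in library 2, against 360 to 602 CPM in those 8 libraries. Nf1, one of the genes targeted in CKO mice, was at 450 CPM in library 2 and at 150 to 215 CPM in the 8 others. That is also above all WT libraries, at 257 to 360 CPM, so the value lies outside the range of the WT libraries and of those 8. Trp53, also targeted, was at 34.3 CPM in library 2 and at 16 to 41.7 CPM in the 8 others. Trp53 levels of WT and CKO animals overlapped at 12 and 90 dpi. Whether library 2 comes from the labelled animal was not settled by the files. What these markers contribute to the peptide values of library 2 was not tested. Changes of the 10 genes that involve the CKO group at 90 dpi are therefore also given without library 2, an alternative chosen after seeing the data.

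**Figure D1:**
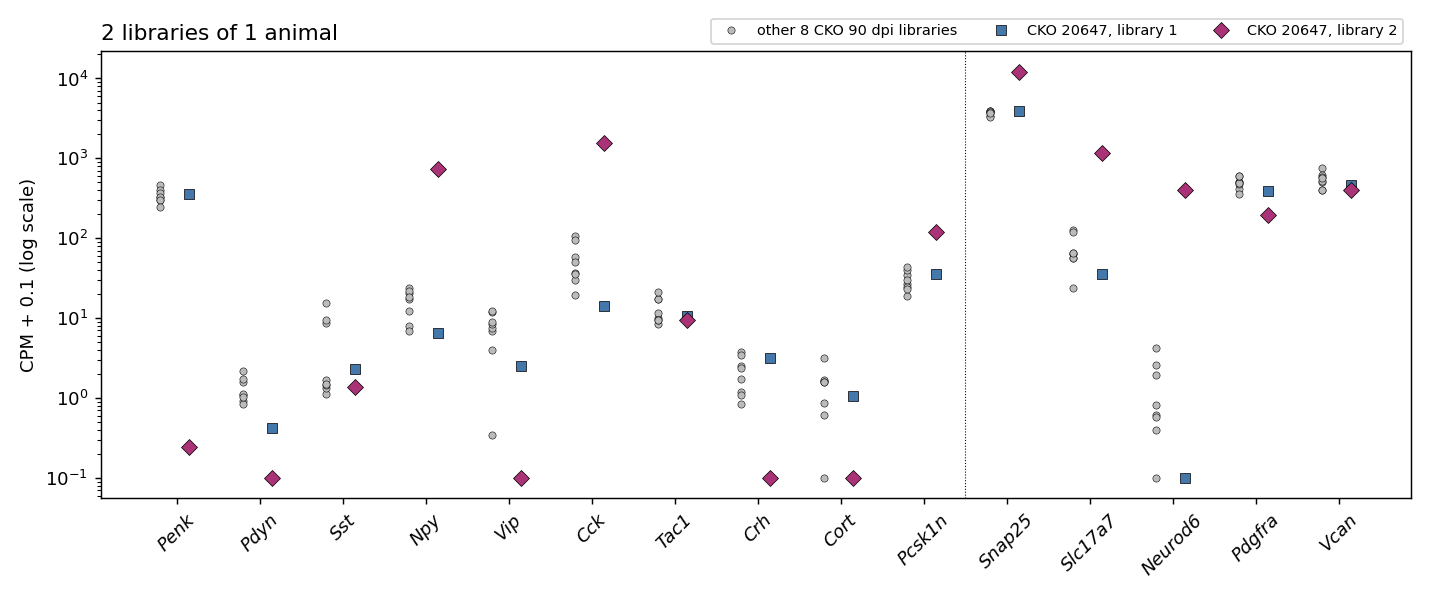
CPM + 0.1 on a log axis of the 10 neuropeptide genes (left of the dotted line) and of marker genes (right of it) in the libraries of CKO mice at 90 dpi. Points are single libraries. Library 2 of CKO_20647 lies apart from library 1 and from the libraries of the other animals at Penk, Npy and Cck.

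The remaining facts of the series that bear on the 10 genes are few. Nf1 lay between 252 and 357 CPM in WT animals and between 149 and 302 CPM in CKO animals and tumours, with the highest CKO value in CKO_20647, library 2 included, and the table does not say which part of the gene was deleted. All 14 OPC markers were detected in every group, with summed levels from 2250 to 4420 CPM in the 30 animals without tumours and from 5260 to 13500 CPM in tumours. Of the other cell types, 12 pan-neuronal markers summed to 5940 to 12900 CPM in animals without tumours and to 388 to 1520 CPM in tumours. The 15 markers of GABAergic interneurons summed to 3090 to 4920 CPM and to 427 to 2240 CPM, and the striatal projection markers to 47.6 to 106 CPM and to 56.3 to 122 CPM. The pan-neuronal sum of 12900 CPM was that of CKO_20647, library 2 included. Outside the CKO group at 90 dpi the highest pan-neuronal sum was 9430 CPM. In captured tissue, fewer cells of a type and less RNA per cell cannot be told apart.

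Scaled to the length of the exons, Penk had the highest mean level of the 10 genes in each of the 5 groups without tumours. In WT mice at 150 dpi the mean level was 235 CPM per kb for Penk, 20.5 for Cck, 17.3 for Npy and 14.8 for Pcsk1n. Tac1 was at 6.28 CPM per kb, Sst at 4.96, Vip at 2.67 and Cort at 1.31, and Pdyn and Crh were both below 1. In CKO mice at 90 dpi Penk was at 197 CPM per kb, Npy at 107 and Cck at 106, and without library 2 they were at 210, 26 and 32.7. In tumours the order was Cck at 26.4 CPM per kb, Npy at 23.6, Pcsk1n at 8.63 and Penk at 2.62.

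**Figure D2:**
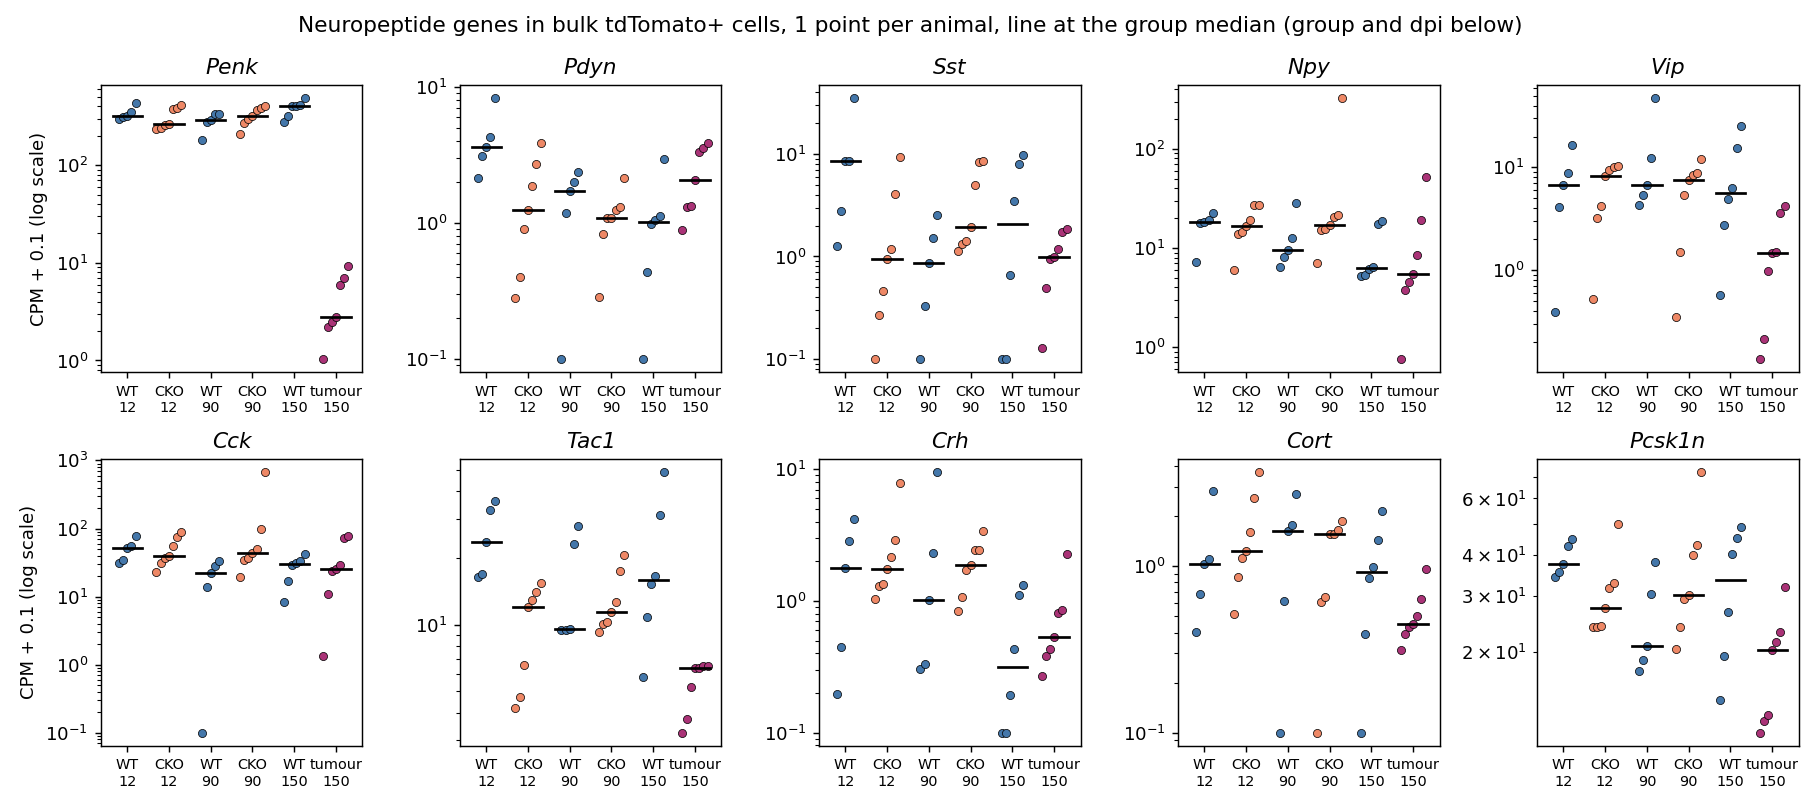
CPM of each neuropeptide gene in every animal, by group, on a log axis. Each point is 1 animal. Penk is the gene whose 7 tumours all lie below all 30 animals without tumours, at 0.936 to 9.12 CPM against 180 to 488 CPM.

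Penk was high in every animal without a tumour and nearly lost in every tumour. In WT mice at 150 dpi its level was 275 CPM in the lowest animal, 401 at the median and 488 in the highest. In the 7 tumours it was 0.936, 2.69 and 9.12 CPM, from 19 to 323 counts per animal. The groups did not overlap, and the lowest of all 30 animals without tumours, the shallow WT_21167, still stood at 180 CPM. By edgeR's quasi-likelihood test Penk was 88.7-fold lower in tumours, at -6.47 on the log2 scale with an SE of 0.35 and an adjusted p of 2.24e-17. Against CKO mice at 90 dpi, at 207, 316 and 402 CPM, the log2 change was -6.23 (SE 0.35, adjusted p = 4.04e-17), and it was -6.33 without library 2. Pan-neuronal markers fell in the same tumours, with a median log2 change of -2.95 over 12 markers against WT. The 2 largest falls were -5.46 for Rbfox3, a splicing factor of mature neurons, and -4.22 for Snap25, a synaptic release protein. The 9 striatal projection markers tested had a median of 0.46. The part of neuron markers in the fall of Penk was not tested.

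The 5 groups without tumours could hardly be ordered by Penk. WT at 150 dpi was highest at 383 ± 74.6 CPM (SD, n = 6), followed by WT at 12 dpi at 343 ± 53.6 CPM (n = 5), CKO at 90 dpi at 322 ± 70.4 CPM (n = 7), CKO at 12 dpi at 311 ± 77.5 CPM (n = 7) and WT at 90 dpi at 285 ± 63.5 CPM (n = 5). Each neighbouring pair differed by less than 1 SD. Without library 2, CKO at 90 dpi was at 343.7 ± 49.4 CPM. WT at 90 dpi included the shallow WT_21167 at 180 CPM, and the other WT mice at that time ran from 280 to 336 CPM. CKO against WT gave log2 changes of -0.13 at 12 dpi (95% interval -0.72 to 0.45) and 0.15 at 90 dpi (-0.45 to 0.74), or 0.23 (SE 0.29) without library 2. Neither was called.

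Pdyn, the other opioid precursor, was low throughout and did not follow Penk. In tumours it lay at 0.79 CPM in the lowest animal, 1.99 at the median and 3.75 in the highest, and in WT mice at 150 dpi at 0, 0.915 and 2.83 CPM, so the groups overlapped. The log2 change was 1.25 (SE 0.61, adjusted p = 0.0903), and against CKO at 90 dpi 1.00 (SE 0.56, adjusted p = 0.134), or 0.97 without library 2. It was the single member with a positive estimate in both tumour comparisons, and DESeq2 called it higher in both (adjusted p = 0.0313 and 0.0374). At 12 dpi Pdyn was at 2.03, 3.01, 3.51, 4.19 and 8.21 CPM in the 5 WT mice and at 0.18 to 3.76 CPM in CKO mice, a log2 change of -1.54 that did not pass the adjustment (adjusted p = 0.997).

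Tac1 encodes the precursor of substance P and neurokinin A. In tumours it lay within a narrow band of 3.15, 6.24 and 6.43 CPM (lowest, median, highest). In WT mice at 150 dpi it was at 5.67, 15.8 and 49.0 CPM, and 1 WT animal, at 10 counts, fell inside the tumour range. The log2 change was -2.04 (SE 0.37, adjusted p = 2.51e-05). CKO mice at 90 dpi were at 9.15, 11.3 and 20.6 CPM, above all tumours, and the log2 change was -1.28 (SE 0.36, adjusted p = 0.00328), the same to 2 decimals without library 2. At 12 dpi the WT mice were at 16.2, 16.8, 23.4, 32.8 and 36.1 CPM and the 7 CKO mice at 4.12, 11.9 and 15.3 CPM. Those groups did not overlap, which held for 0.606% of genes in that direction, but the log2 change of -1.39 (SE 0.39) was not called over all genes (adjusted p = 0.597).

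Pcsk1n encodes proSAAS, a granin-like protein that inhibits the convertase PCSK1. It was at 11.2, 20.3 and 31.7 CPM in tumours, at 14.2, 33.4 and 48.8 CPM in WT mice at 150 dpi and at 20.3, 30.1 and 72.5 CPM in CKO mice at 90 dpi, with overlap in both comparisons. The log2 change was -0.78 against WT (SE 0.28, adjusted p = 0.0226) and -0.96 against CKO at 90 dpi (SE 0.27, adjusted p = 0.00366). Without library 2 the latter was -0.70 (adjusted p = 0.0171). The call against WT was lost with RLE size factors (adjusted p = 0.0723), with DESeq2 (0.0658), with the compared groups alone (0.123), and without any of Tumor_16839, Tumor_16840, Tumor_21349, WT_21590, WT_22062 or WT_22064 (adjusted p up to 0.0771).

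The interneuron peptides were scarcer and varied between animals. Vip, which encodes vasoactive intestinal peptide, was at 0.0353, 1.35 and 4.09 CPM in tumours and at 0.473, 5.54 and 25.1 CPM in WT mice at 150 dpi, and the groups overlapped. Its log2 change of -2.23 (SE 0.84, adjusted p = 0.0293) was called, and against CKO at 90 dpi it was -1.74 (SE 0.79, adjusted p = 0.0662), or -1.80 without library 2 (adjusted p = 0.0531). The call against WT was lost without any of Tumor_16713, Tumor_16840, Tumor_21349, WT_22062 or WT_22064, with adjusted p up to 0.0886, with the deepest library of each animal (0.0641) and with the compared groups alone (0.109). Sst, which encodes somatostatin, had a median of 0.884 CPM in tumours and 1.95 CPM in WT, where 2 of 6 animals held no count. Its log2 changes were -2.01 against WT (SE 0.97, adjusted p = 0.0876) and -2.11 against CKO at 90 dpi (SE 0.93, adjusted p = 0.0565), the latter -2.14 without library 2 (adjusted p = 0.0522). Cort, the somatostatin-like precursor of cortistatin, was at or below 3.61 CPM in every animal. It had log2 changes of -1.04 (SE 0.62, adjusted p = 0.171) and -1.31 (SE 0.57, adjusted p = 0.0528), and the latter passed without library 2 (adjusted p = 0.0359). Crh, which encodes corticotropin-releasing hormone, did not exceed 2.15 CPM in tumours. Its log2 changes were 0.46 against WT (SE 0.82, adjusted p = 0.687) and -1.39 against CKO at 90 dpi (SE 0.71, adjusted p = 0.102), the latter -1.55 without library 2 (adjusted p = 0.0674). Against CKO at 90 dpi, Vip and Sst were called lower with no sex covariate (adjusted p = 0.0294 and 0.0499), and with the compared groups alone Vip, Sst and Crh were (0.039, 0.0288 and 0.0399). For Sst, Cort and Crh the groups overlapped in both comparisons.

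Npy and Cck had tumour medians within the WT range, and single tumours lay both below and above that range. Npy, which encodes neuropeptide Y, was at 0.659 CPM in the lowest tumour, 5.39 at the median and 51.7 in the highest, and at 5.10, 6.18 and 18.6 CPM in WT mice at 150 dpi. The log2 change was 0.42 (95% interval -0.98 to 1.83, SE 0.72, adjusted p = 0.67). Cck, which encodes cholecystokinin, was at 1.24, 25.5 and 78.3 CPM in tumours and at 8.12, 30.0 and 42.5 CPM in WT. Its log2 change was 0.18 (95% interval -1.08 to 1.44, SE 0.64, adjusted p = 0.849). The lowest Npy was in Tumor_16713 and the lowest Cck in Tumor_21349, so they were not the same animal. Tumor_16844 held the highest Npy and, at 73.1 CPM, the second highest Cck.

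Against CKO mice at 90 dpi, the calls of Npy and Cck rested on 1 library. With both libraries of CKO_20647 summed, Npy had a log2 change of -2.07 (SE 0.68, adjusted p = 0.0107) and Cck one of -2.06 (SE 0.62, adjusted p = 0.00575). Without library 2 they were -0.11 (adjusted p = 0.882) and -0.33 (adjusted p = 0.635), and neither was called. In the 7 CKO mice Npy then ran from 6.37 to 21.4 CPM, where CKO_20647 with both libraries stood at 326 CPM. Cck then ran from 13.9 to 100 CPM, where it had stood at 682 CPM.

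Counted together, 4 of the 10 genes fell in tumours against WT (Penk, Tac1, Vip and Pcsk1n) and none rose, where 21.9% of all 16349 genes tested fell and 24.3% rose. The median log2 change of the 10 was -0.91 against 0.06 over all genes. With RLE size factors the median over all genes moved to 0.22, and the changes are relative to such a centre. Against CKO at 90 dpi, 5 fell (Penk, Tac1, Pcsk1n, Cck and Npy) where 22.6% of all genes fell, and without library 2 it was 4 (Penk, Tac1, Pcsk1n and Cort) where 22.3% fell. The median of the 10 was -1.57 with library 2 and -1.33 without it, against 0.12 and 0.14 over all genes. Both comparisons use the same 7 tumours. Groups did not overlap for Penk alone against WT, where 8.96% of genes were lower without overlap, and for Penk and Tac1 against CKO at 90 dpi, where the share was 10.5%.

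**Figure D3:**
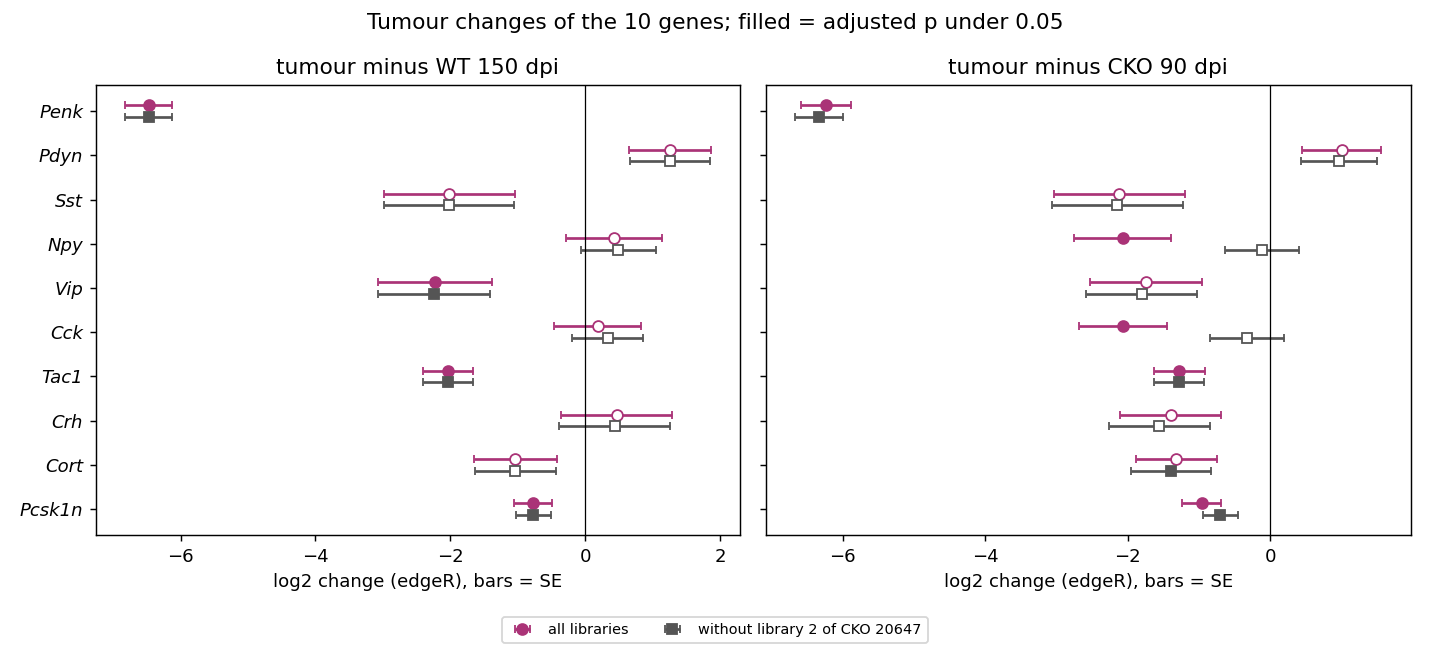
Log2 change with SE of each neuropeptide gene in tumours against WT at 150 dpi and against CKO at 90 dpi, filled where the adjusted p is under 0.05. Circles use all libraries and squares leave out library 2 of CKO_20647, which moves Npy and Cck in the comparison with CKO to near 0.

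The effect of genotype (CKO or tumour minus WT) was compared between times as an interaction in the same fit. From 90 to 150 dpi it fell for 3 members, where 15.8% of all genes had a lower effect: Penk with a log2 difference of -6.62 (SE 0.47, adjusted p = 1.34e-13), Tac1 with -1.66 (SE 0.55, adjusted p = 0.0191) and Pcsk1n with -1.49 (SE 0.43, adjusted p = 0.00691). Without library 2 the same 3 were called. The call of Tac1 was lost without WT_22064, WT_22184 or WT_22254 (adjusted p up to 0.0969), or with the deepest library of each animal (0.0514). From 12 to 90 dpi no member was called by edgeR or DESeq2 and 3 passed an unadjusted p under 0.05, where 0% and 3.6% of all genes did. They were Sst (log2 difference 3.85, SE 1.48), Cck (2.27, SE 0.99) and Pcsk1n (1.07, SE 0.43), each with an adjusted p of 1. Without library 2 they were 3.88, 0.89 and 0.85, and 2 of them, Sst and Pcsk1n, passed unadjusted.

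Among the groups without tumours, no member was called in any comparison of genotype or time, by edgeR or by DESeq2. CKO against WT at 12 dpi had 3 members at an unadjusted p under 0.05, where 0.0183% of genes were called and 4.85% passed unadjusted: Tac1 and Pdyn, given with their values, and Sst with a log2 change of -2.18 (SE 0.97, adjusted p = 0.997). For Sst, 1 WT mouse stood at 35.1 CPM, while the 4 others ran from 1.17 to 8.53 CPM and the CKO mice from 0 to 9.26 CPM. At 90 dpi the 3 were Npy (2.35, SE 0.87, adjusted p = 0.824), Cck (2.31, SE 0.76, adjusted p = 0.721) and Pcsk1n (0.71, SE 0.32, adjusted p = 0.919), where 0.0489% of genes were called and 5.2% passed unadjusted. Without library 2 these became 0.60, 0.90 and 0.48, and no member passed unadjusted.

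Over time, CKO mice at 90 against 12 dpi had 1 member at an unadjusted p under 0.05, Npy with a log2 change of 1.54 (SE 0.69, adjusted p = 1), which turned to -0.25 without library 2. No gene at all was called there and 4.26% passed unadjusted. WT mice at 90 against 12 dpi had Sst (-3.15, SE 1.20, adjusted p = 0.966) and Pcsk1n (-0.79, SE 0.34, adjusted p = 0.995), where 0.00612% of genes were called and 4.86% passed unadjusted. Fitted on those 2 WT groups alone, Cck (-1.17, adjusted p = 0.0227) and Pcsk1n (-0.87, adjusted p = 0.018) were called. That fit called 286 of all genes, against 1 in the fit of all groups. WT mice at 150 against 90 dpi had no member at an unadjusted p under 0.05, where 0.0183% of genes were called and 8.26% passed unadjusted.

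The wider peptide system was described with lists of other genes of the pathway. Their counts stand beside 21.9% of all genes tested that fell in tumours against WT and 24.3% that rose. Of 32 other neuropeptide precursors, 13 passed the filter, and 6 fell and 3 rose in tumours against WT (median log2 change 0.22). Cartpt, the precursor of the CART peptides, fell from 19.1 ± 8.04 CPM (SD, n = 6) to 1.15 ± 1.23 CPM (n = 7), a log2 change of -4.12 (adjusted p = 1.7e-09), and Prok2, a secreted prokineticin, had -3.98 (adjusted p = 1.97e-07). Pomc, the precursor of ACTH and beta-endorphin, rose by 3.72 on the log2 scale (adjusted p = 0.00404) with a mean of 18.3 ± 45.4 CPM, and without Tumor_16713 it was at 0.27 (adjusted p = 0.891). Of the processing enzymes, 4 of 13 tested fell and 4 rose. Pcsk1 and Pcsk2, the convertases of dense-core vesicles, fell by 2.80 and 2.04 on the log2 scale (adjusted p = 2.81e-07 and 7.2e-08), while Cpm, a membrane carboxypeptidase, and Pcsk6, a convertase of the constitutive pathway, rose by 2.09 and 1.25 (adjusted p = 0.00117 and 0.000812). Of granins and dense-core vesicle proteins, 10 of 14 tested fell and 1 rose (median -1.05). Ptprn, a membrane protein of these vesicles, had a log2 change of -2.51 (adjusted p = 1.83e-10) and Cadps, a priming factor for their release, one of -2.32 (adjusted p = 9.32e-15). The exception, Tmed10, a protein of the early secretory pathway, had 0.50 (adjusted p = 0.00351), a call lost with the compared groups alone (adjusted p = 0.0623).

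Of the 20 receptors tested, 12 fell in tumours against WT and none rose (median -2.04), where 21.9% of all genes fell and 24.3% rose. The same shares apply to each list that follows. Oprd1, the delta opioid receptor on which enkephalins act, went from 28.7 ± 5.55 CPM (n = 6) to 0.557 ± 0.569 CPM (n = 7), a log2 change of -5.39 (adjusted p = 7.23e-15). Npy5r, a receptor of neuropeptide Y, had -5.03 (adjusted p = 2.18e-08). Penk and Oprd1 thus both fell in tumours, while Npy, the ligand of Npy5r, was not called. Of peptide-degrading and binding proteins, 2 of 14 tested fell and 4 rose. Crhbp, which binds corticotropin-releasing hormone, had a log2 change of -4.34 (adjusted p = 4.57e-10), and Nln, the endopeptidase neurolysin, one of 1.16 (adjusted p = 7.67e-06). Of the CREB pathway and its targets, 9 of 15 fell and 1 rose. Npas4, a transcription factor induced by neuronal activity, had -5.78 (adjusted p = 1.68e-09) and Prkar1b, a regulatory subunit of protein kinase A, -2.13 (adjusted p = 1.72e-10). Of the pan-neuronal markers 11 of 12 fell (median -2.95), and of the GABAergic interneuron markers 8 of 14 (median -1.46). Of the striatal projection markers 1 of 9 fell and 2 rose (median 0.46), and of the OPC markers 13 of 14 rose (median 1.47). Of the excitatory neuron markers 1 of 10 fell and 2 rose (median 1.12), of the oligodendrocyte markers 6 of 10 fell and 1 rose (median -1.85), and of the microglia markers 9 of 10 rose (median 2.12). Of the astrocyte markers 3 of 10 fell and 5 rose, and of the endothelial markers 3 of 10 fell. What neuron markers contribute to the falls in these lists was not tested.

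**Figure D4:**
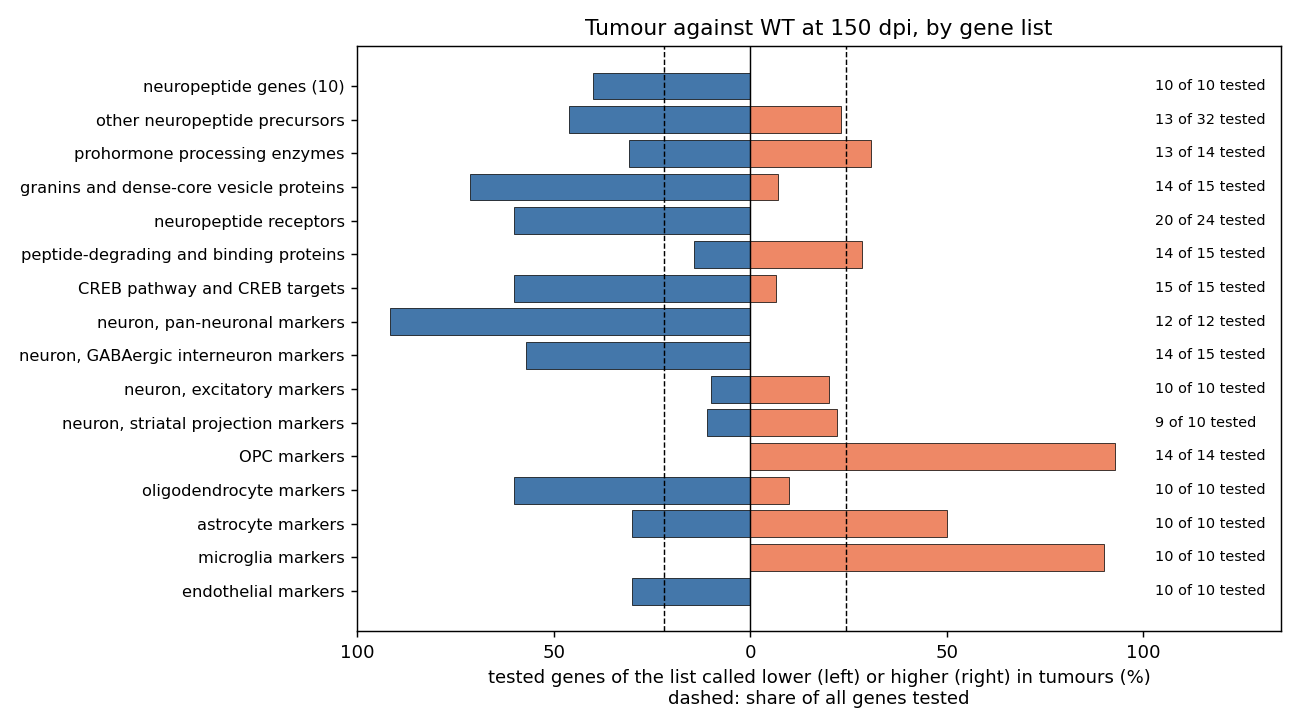
Share of each gene list that was called in tumours against WT at 150 dpi, as bars to the left (called lower) and to the right (called higher), in percent of the genes of the list that were tested. Dashed lines are the shares over all genes, 21.9% lower and 24.3% higher. The bar of the neuropeptide genes runs to the left alone, as do those of the receptors and of the pan-neuronal, GABAergic interneuron and endothelial markers.

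The small libraries came from CKO mice alone. A 10-cell library holds 10 captured cells, and a pool-and-split library is a 10-cell share of a larger pool of captured cells, which carries the spread of the procedure. At each time there were 56 10-cell and 40 pool-and-split libraries, in 4 sets by sex and the number that ends the label, with 1.64 to 6.49 M counts each (M, 1e+06). The labels do not say whether libraries of 1 set come from 1 mouse. Shares carry exact 95% binomial intervals, which cover counting error only.

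Most 10-cell libraries held Penk and Pcsk1n, while Pdyn was rare. At 12 dpi Penk had a count above 0 in 47 of 56 10-cell libraries (83.9%, interval 71.7 to 92.4), with a median of 52.4 CPM and a highest value of 1380 CPM. At 90 dpi it was 42 of 56 (75%, 61.6 to 85.6), with a median of 49.7 CPM and a highest value of 332 CPM. Pcsk1n was found in 55 and 56 of 56, Cck in 43 and 49, and Npy in 38 and 46. Vip was found in 18 and 21, Tac1 in 17 and 21, and Sst in 13 and 12. Crh and Cort were each found in 13 at 12 dpi and 21 at 90 dpi, and Pdyn in 2 and 7. The rarer peptides were carried by few libraries: the 5 highest libraries held 97.6% of the Sst CPM at 12 dpi and 96.9% at 90 dpi, and 88.9% and 80.8% of the Vip CPM, against 47.5% and 33.4% for Penk. A single 10-cell library reached 2590 CPM of Sst at 90 dpi and another 3940 CPM of Vip at 12 dpi. Of the 112 10-cell libraries, 1 held none of the 10 genes and 6 held 9 of them. Neuron markers were present too: Rbfox3 was found in 53 and 51 of 56 10-cell libraries and Gad1, which makes GABA, in 55 and 56, while the OPC marker Pdgfra was found in 36 and 49. Their part in the peptide values was not tested.

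**Figure D5:**
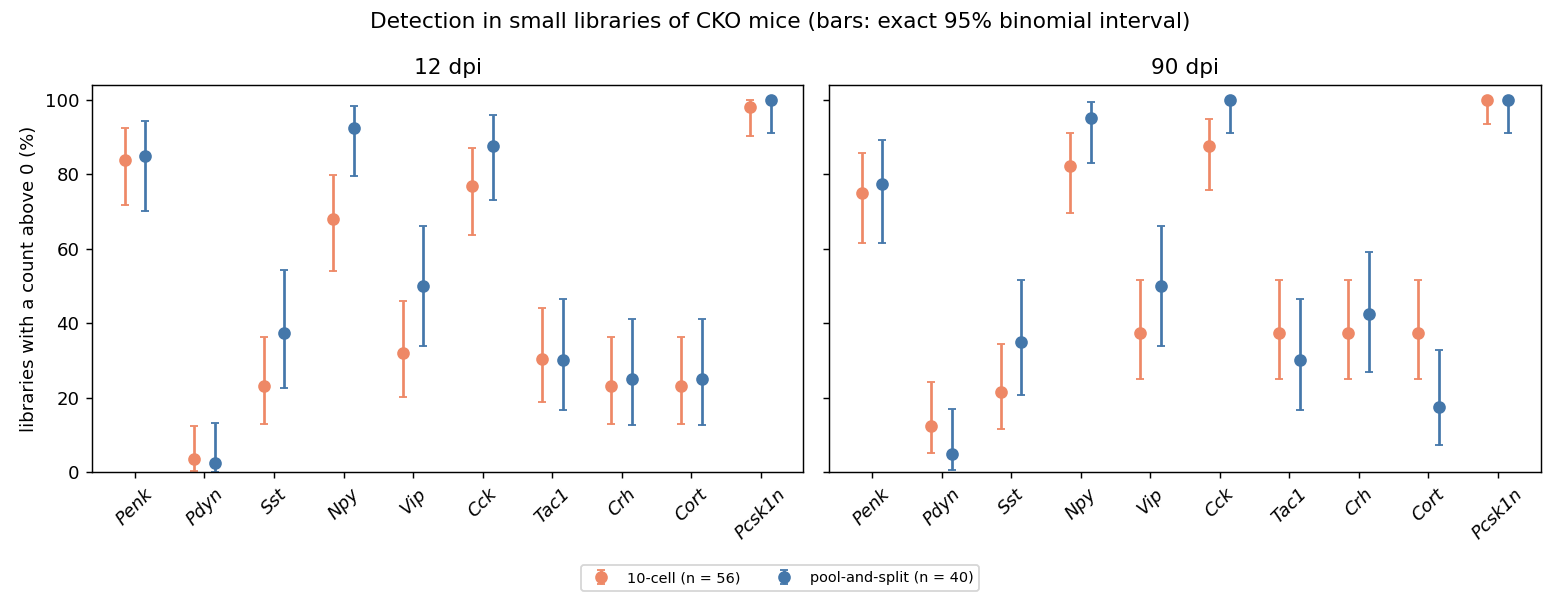
Percent of small libraries of CKO mice with a count above 0 for each neuropeptide gene at 12 and 90 dpi, with exact 95% binomial intervals. Npy was found in fewer 10-cell libraries (67.9%) than pool-and-split libraries (92.5%) at 12 dpi, and Penk in similar shares (83.9% and 85%).

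Summed over sets, no member was called between 90 and 12 dpi in either kind of library by edgeR or DESeq2, and edgeR called 0% of all genes. Pcsk1n was the member at an unadjusted p under 0.05 in both kinds, where 7.31% of genes in 10-cell and 7.92% in pool-and-split sets passed. Its 4 10-cell sets ran from 145 to 196 CPM at 90 dpi and from 78.5 to 119 CPM at 12 dpi, a log2 change of 0.76 (SE 0.31, adjusted p = 0.64). The pool-and-split sets ran from 164 to 306 CPM and from 71.6 to 115 CPM, and differed by 1.48 on the log2 scale (SE 0.42, adjusted p = 0.58). The bulk libraries of CKO mice gave a change over the same interval of 0.28 (95% interval -0.25 to 0.81), or 0.05 (SE 0.24) without library 2. Penk ran from 41.3 to 97.2 CPM in the 10-cell sets at 90 dpi and from 58.7 to 233 CPM at 12 dpi, with overlap (log2 change -1.14, SE 0.56, adjusted p = 0.699).

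Spread between libraries was compared between the kinds, for genes found in at least 50% of the small libraries, by limma on absolute deviations of log2(CPM + 1) from the median of the set, with sex as a covariate. Each library is 1 value there, so these p-values cover the spread between libraries and not between mice. The 4 members tested were Penk, Npy, Cck and Pcsk1n, and none was called, where 0.0254% of genes were called larger in 10-cell libraries at 12 dpi and 0.259% at 90 dpi. Npy had the widest gap: its mean absolute deviation was 3.16 log2 units in 10-cell and 1.62 in pool-and-split libraries at 90 dpi, a difference of 1.54 (SE 0.44, adjusted p = 0.0659), and 3.33 against 2.07 at 12 dpi (adjusted p = 0.414). With a pseudocount of 0.1 in place of 1, or without the sets of male number 1, Npy was called at 90 dpi. At an unadjusted p under 0.05 were Npy and Cck at 12 dpi and Npy at 90 dpi. Penk had differences of 0.30 (SE 0.38) at 12 dpi and 0.34 (SE 0.38) at 90 dpi, both within their error. Between members, Pearson's r of log2(CPM + 1) across the 112 10-cell libraries ran from -0.10 (Penk and Vip) to 0.38 (Vip and Crh), in sparse counts from libraries of both times that share depth and set.

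Likeness was searched for the members with a mean of at least 10 CPM over the animals without tumours: Penk, Cck, Npy, Tac1 and Pcsk1n. The genes whose levels followed each of them most closely were found over 29 of these animals, leaving out WT_21167. Pearson's r was taken of log2 CPM after subtracting group means, over 10070 genes. The values are descriptions, and the animals share differences in depth and capture. For Penk they were Pcp4 (r = 0.791), a small calmodulin-binding protein of neurons, Snn (0.782) and Kcnj4 (0.737). Without library 2 Pcp4 was still among the first 3 (0.844), behind Ndufa5 (0.855) and ahead of Tceal5 (0.829). For Cck they were Mapk10 (0.919), Shisa9 (0.883) and Slc17a7 (0.883), and for Npy AI593442 (0.87), Mapk10 (0.85) and Thy1 (0.839). Without library 2 these 6 values fell to 0.804, 0.847, 0.765, 0.653, 0.642 and 0.533, and the first 3 were Trnp1, Shisa9 and Cdhr1 for Cck and Spock2, Nefm and Mcu for Npy. The r between Npy and Cck went from 0.771 to 0.527. For Tac1 they were Adamts4 (0.718), Maea (0.709) and Slc25a30 (0.706), and without library 2 Syt17 (0.785), Fxyd6 (0.77) and Jpt1 (0.736). For Pcsk1n they were Grcc10 (0.876), Mif (0.867) and Uqcr11 (0.864), and without library 2 Gm10443 (0.863), Grcc10 (0.861) and Rpl28-ps1 (0.855). Among members, Penk reached its highest r with Vip (0.399) and its lowest with Cck (-0.342), while without library 2 the highest was with Pcsk1n (0.368) and the lowest with Tac1 (-0.0892).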

How the data were processed

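The deposited table holds expected counts per gene; per the submitters' processing notes, RSEM, Bowtie2 and GRCm38 were used, in versions not given in the sources used here. Bulk libraries were made from total RNA by T7 linear amplification and small ones from polyA RNA by PCR, per the labels' protocols, so levels were not compared between them. Here the expected counts were summed over the libraries of 1 animal and rounded, and 92 spike-ins were left out, leaving 34623 genes. The bulk test was edgeR 4.0.16 (quasi-likelihood, filterByExpr with minimum count 10 and total 15, TMM, sex as covariate, 37 animals in 1 fit, Benjamini-Hochberg adjustment, threshold 0.05) in R 4.3.3. A gene is called, and said to rise or fall, under that threshold. CPM in the text are scaled by the same factors, except for single libraries, which are scaled to their totals. Small libraries were summed into 4 sets per time, tested in the same way, and compared for spread with limma 3.58.1 (pseudocount 1). P-values measure the spread between these samples. Depth ran from 0.0936 to 31.3 M counts (M, 1e+06) per animal. The 7 tumours were sequenced as 14 libraries, with a median of 24 M counts per animal. The 6 WT mice at 150 dpi were sequenced as 6 libraries, with a median of 4.19 M. What depth contributes to the tumour changes was not tested. Alternatives were DESeq2 1.42.0, RLE factors, no filter, a 10 CPM filter on the mean, the compared groups alone, a fit without sex, the deepest library per animal, each replicate left out, and 1 library left out. All 10 members are named. Their statistics are given in both tumour comparisons and elsewhere at an unadjusted p under 0.05. Of other lists, up to 2 called genes in each direction and markers that define cell types are named. Members and lists were chosen with earlier results of these data known.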

Additional observations from a re-analysis of the deposited data

Results flagged for a closer look

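A single animal stood far from the rest of its group, by Dixon's criterion, in 13 of 60 combinations of gene and group. In each of the 13 it was the highest animal. The criterion's rate of about 1 in 20 holds for normally distributed values. CPM were not transformed here and include low counts, so the 13 cannot be weighed against that rate. In CKO mice at 90 dpi, CKO_20647 held Npy at 326 CPM (next 21.3) and Cck at 682 CPM (next 99.8), both from its library 2. In WT mice at 90 dpi, Npy at 28.4 CPM, Vip at 47.4 CPM and Crh at 9.48 CPM all came from WT_21167 and rest on 3, 5 and 1 counts. In tumours, Npy reached 51.7 CPM (next 19.2) and Crh 2.15 CPM (next 0.76). In CKO mice at 12 dpi, Sst reached 9.26 CPM (next 3.94), Crh 7.75 CPM (next 2.82) and Pcsk1n 49.8 CPM (next 32.8). In WT mice, Sst reached 35.1 CPM (next 8.53) and Cort 2.73 CPM at 12 dpi, and Pdyn 2.83 CPM (next 1.02) at 150 dpi.

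Among the sets of small libraries, 10 of 40 combinations had 1 set far from the others. In 10-cell sets, Pdyn reached 5.74 CPM at 12 dpi (the others at 0) and 12.2 CPM at 90 dpi (next 1.33), Sst 249 CPM (next 40.1) and 158 CPM (next 14.4), and Cort 8.01 CPM at 90 dpi (next 1.3). In pool-and-split sets, where Pdyn did not pass the filter on low counts, it reached 0.0214 CPM at 12 dpi and 0.303 CPM at 90 dpi, with the others at 0. Where the other sets are at 0, as here and for Pdyn in 10-cell sets at 12 dpi, any value above 0 is flagged. Tac1 reached 29.9 CPM (next 6.4) and Pcsk1n 115 CPM (next 78.7) at 12 dpi, and Cort 15.0 CPM (next 1.2) at 90 dpi.

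The effect of genotype differed between 90 and 150 dpi, by the interaction term, for Penk (-6.62 on the log2 scale), Tac1 (-1.66) and Pcsk1n (-1.49).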

How the results depend on the processing

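Of 123 log2 changes of named genes, 117 reversed under no setting. With the compared groups alone, 2 members were called in tumours against WT (4 as reported) and 2 in WT mice at 90 against 12 dpi (none as reported). Over all genes, that setting called 5394 against WT (7556 as reported) and 286 in the WT mice (1 as reported). Leaving out 1 replicate gave 2 to 5 against WT, with 2 without Tumor_16840, Tumor_21349, WT_22062 or WT_22064. Against CKO at 90 dpi, where 5 were called, the deepest library of each animal gave 3, no sex covariate or the compared groups alone 7, and leaving out 1 replicate 5 to 8, with 8 without CKO_22149. Of all genes, 8023 were called there as reported, 7921 with the deepest library, 8087 with no sex covariate and 6527 with the compared groups alone. For the genotype effect at 150 minus 90 dpi, DESeq2 called 5 in place of 3, and leaving out 1 replicate gave 2 to 5. DESeq2 called 5555 of all genes there, against 4903 as reported. In pool-and-split sets, taking each library as a replicate called 1 member, Pcsk1n. The spread test at 90 dpi called 1 member with a pseudocount of 0.1 and 0 to 1 with 1 set left out. Npy in CKO mice at 90 against 12 dpi went to -0.22 with the deepest library, to -0.25 without library 2 and to between -0.11 (without CKO_20647) and 1.77 with 1 replicate left out. Npy in tumours against CKO went to 0.26 with the deepest library. Neurod6, a neuron marker, went there from -2.97 to 2.01 with the deepest library, to 1.71 without library 2 and to between -3.75 and 1.35 with 1 replicate left out. Against WT, leaving out 1 replicate gave Npy -0.31 to 0.81 (negative without Tumor_16844), Cck -0.086 to 0.46 (negative without Tumor_16844, Tumor_21256 or WT_21591) and Crh -0.15 to 1.15 (negative without Tumor_16839). Penk stayed between -6.82 and -6.23 against WT in each setting run. The cause of these shifts was not tested. With the replicate block, 0 members were called in 10-cell and 0 in pool-and-split sets. The numbers did not pair the sets, whose deviations correlated at -0.0393 to 0.0191. Depth limits Pdyn, Crh and Cort, which are at a few CPM, and WT_21167, where 3 counts are 28.4 CPM.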
